A study of Homo sapiens with 12 samples.

Results

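The leukocyte and immunoglobulin-type cell adhesion molecules ICAM1, ICAM2, ICAM3, ICAM5, VCAM1, ALCAM, MCAM, NCAM1 and L1CAM were followed in the mRNA of cultured human adipocytes. These 9 genes were chosen for their protein family, out of 28901 gene names in the count table. The choice was made with earlier results of these data known. The data are transcript levels, and neither surface protein nor adhesion was measured in these files.

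The cells were ASC52telo hTERT, adipose stromal cells immortalized with telomerase and differentiated into adipocytes over 14 days. All 4 groups carried a lentiviral shRNA vector with the green reporter ZsGreen and were sorted for it. They held a scramble shRNA (scramble), the scramble shRNA with lipopolysaccharide at 100 ng/mL for 4 h (scramble LPS), an shRNA against the long intergenic noncoding RNA linc-ADAIN (KD), or that shRNA with the same LPS (KD LPS). Each group had 3 polyA RNA libraries. The model is a single immortalized line with 1 hairpin per arm, and all libraries were made in 1 experiment run as triplicates, so p-values reflect only the spread inside that experiment. The knocked-down transcript was not analysed here.

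Cell adhesion molecules of the immunoglobulin family are membrane proteins whose stacked immunoglobulin folds bind partners on another cell. ICAM1 and VCAM1 are the classical inducible members: inflammatory signals raise them through NF-κB, and leukocytes bind them through the integrins LFA-1 and Mac-1 (ICAM1) and VLA-4 (VCAM1). ICAM2 is constitutive on endothelium, ICAM3 is a leukocyte molecule and ICAM5 a neuronal one. ALCAM (CD166) binds itself and CD6 on T cells, and MCAM (CD146) marks endothelial and perivascular cells. NCAM1 (CD56) and L1CAM mediate neural adhesion. Adipocytes and their stromal precursors are known to present ICAM1 and VCAM1 to macrophages in inflamed fat.

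Libraries held 28381782 to 53837400 estimated counts on named genes, and within groups the log2 levels of all genes correlated at 0.96 to 0.977. Levels are counts-per-million (CPM), scaled with edgeR's TMM factors over the 12 libraries. The LPS labels were borne out by CXCL8, a chemokine gene, whose mean rose from 141 to 452 CPM in scramble and from 434 to 1565 CPM in KD, and by IL6, from 52.5 to 132 and from 89.7 to 508 CPM (edgeR adjusted p at most 3.5e-06). Without LPS 6 of 8 adipocyte markers were lower in KD, against 15.1% of all genes tested. Their summed level was 3130 to 4340 CPM in scramble, 3640 to 4200 in scramble LPS, 624 to 1820 in KD and 503 to 1170 in KD LPS, with LEP under 1 CPM throughout and LPL at 0 to 2.36 CPM. The lowest sums of the KD groups were in library 3 of each, 624 against 1820 and 1380 CPM in KD and 503 against 1170 and 805 CPM in KD LPS. The summed stromal markers were 5980 to 7400, 5660 to 6420, 8250 to 9850 and 9310 to 10700 CPM in the same order, but the 8 genes split: without LPS DCN was at a mean of 2671 CPM in scramble and 4904 in KD, while THY1 was at 764 and 148 and PDGFRB at 977 and 523. The part of these differences in the results below was not tested, and in bulk RNA fewer cells of a type and less RNA per cell cannot be told apart.

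ICAM1 and VCAM1 were the members that passed the test with an LPS change of at least 2-fold, so their promoter windows are printed here from 250 bases before to 50 bases after the annotated start. They come from RefSeq on GRCh38.p14, which had such windows for 7 of the 9 members. The ICAM1 window is chr19:10270870-10271169 and the VCAM1 window is chr1:100719492-100719791, both on the plus strand. Capitals mark letters that match the NF-κB consensus or the shorter κB pattern GGNNNTTCC on either strand.
ICAM1: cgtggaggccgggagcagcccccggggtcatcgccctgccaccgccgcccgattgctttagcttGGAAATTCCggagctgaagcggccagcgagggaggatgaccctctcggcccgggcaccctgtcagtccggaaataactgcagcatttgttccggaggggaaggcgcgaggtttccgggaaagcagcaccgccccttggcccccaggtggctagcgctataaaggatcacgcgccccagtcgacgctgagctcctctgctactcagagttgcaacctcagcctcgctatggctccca
VCAM1: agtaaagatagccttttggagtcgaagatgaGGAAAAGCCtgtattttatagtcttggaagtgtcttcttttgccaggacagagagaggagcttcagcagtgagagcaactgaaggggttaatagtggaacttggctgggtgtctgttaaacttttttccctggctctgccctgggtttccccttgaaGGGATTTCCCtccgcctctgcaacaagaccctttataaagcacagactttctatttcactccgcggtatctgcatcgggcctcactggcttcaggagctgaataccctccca

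In the VCAM1 window the run GGGATTTCCC, 62 bases before the start, matched the κB consensus, and the short pattern lay within it. A second match to the short pattern, GGAAAAGCC on the reverse strand, began 219 bases before the start. In the ICAM1 window GGAAATTCC, 186 bases before the start, matched the short pattern only. Of 35116 RefSeq windows of this length, 5.91% held the consensus and 20.1% the short pattern. MCAM, whose level did not rise in any comparison, also held a consensus match, 31 bases after its start. Of the 3 ICAM3 windows 1 held the short pattern, and windows of ALCAM, ICAM5 and L1CAM held neither. These matches describe letters and show no binding.

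The ICAM genes of chromosome 19 lie close together. In GENCODE v44 (GRCh38), ICAM1 spans positions 10271093 to 10286615 on the plus strand of chromosome 19, and ICAM4 begins 339 bases after it. ICAM5 (10289952 to 10296778) follows ICAM4 after 1429 bases, and ICAM3 (10333776 to 10339661, minus strand) lies 36997 bases beyond ICAM5. VCAM1 is on chromosome 1 at 100719742 to 100739045, ICAM2 on chromosome 17 at 64002594 to 64020634, and ALCAM on chromosome 3 at 105366909 to 105576900. MCAM (119308529 to 119321521) and NCAM1 (112961275 to 113278436) are on chromosome 11, and L1CAM is on X at 153861514 to 153886173. ICAM1 overlaps the antisense genes LIMASI and ICAM4-AS1, ICAM2 overlaps PRR29 and MCAM overlaps CBL on the other strand. ICAM3 overlaps ENSG00000274425 on the other strand. NCAM1 overlaps 4 genes, among them NCAM1-AS1 on the other strand and RNU7-187P on its own. L1CAM overlaps L1CAM-AS1 on the other strand and ENSG00000284987 on its own. The strand setting of the counting was not given in the sources used here, so a share of reads from these partners cannot be told apart.

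In scramble adipocytes the family was dominated by ALCAM. Levels between genes were compared per kilobase of the canonical transcript. ALCAM stood at 59.6 ± 14.3 CPM per kb (SD, n = 3) and MCAM at 19.0 ± 3.48. ICAM2 at 4.51, ICAM3 at 3.56 and ICAM1 at 2.96 CPM per kb followed, with library ranges that overlapped between neighbours. ICAM5 was at 0.430 and VCAM1 at 0.191 CPM per kb, and L1CAM and NCAM1 were near 0.

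The order changed with both LPS and KD. In scramble LPS ICAM1 was second at 19.1 ± 3.47 CPM per kb, overlapping MCAM at 15.4 ± 0.864. In KD ICAM1 was second at 9.04 ± 0.376, above MCAM at 4.54 ± 1.68 without overlap. In KD LPS ICAM1 reached 46.2 ± 5.48, overlapping ALCAM at 55.9 ± 4.45, and VCAM1 followed at 5.59 ± 0.787. ICAM1 made up 2.52 to 4.18% of the members' summed CPM per kb in scramble, 13.3 to 20.7% in scramble LPS, 14.6 to 16.8% in KD and 36.4 to 43.1% in KD LPS. The MCAM share went the other way, from 16.3 to 28.7% in scramble down to 1.52 to 2.64% in KD LPS.

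**Figure D1:**
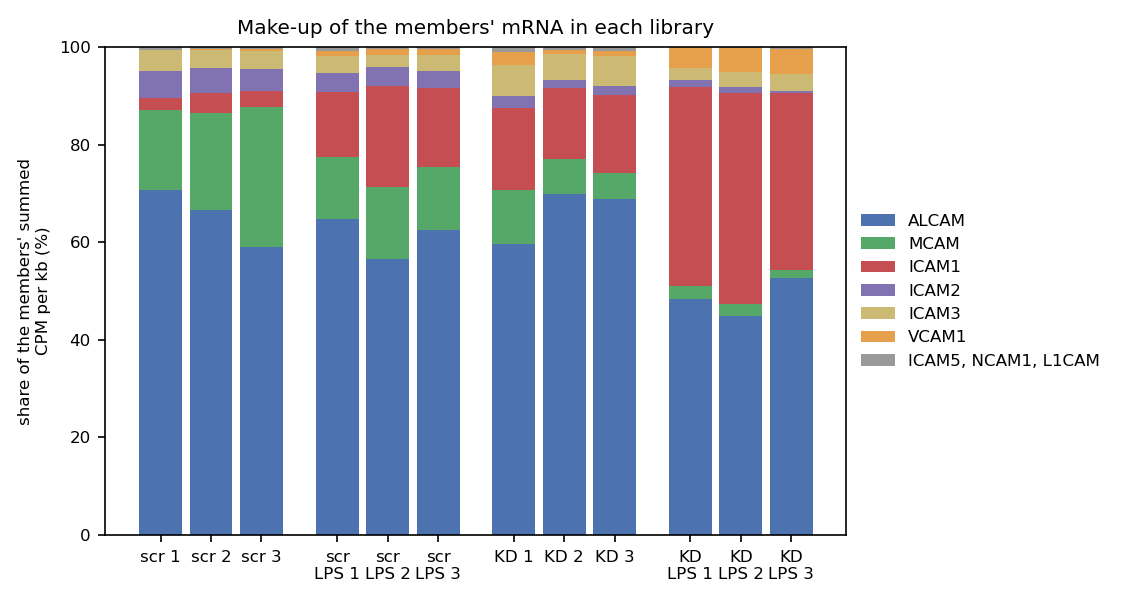
Share in percent of each member in the summed CPM per kb of the 9 members, 1 bar per library (scr, scramble). The ICAM1 part grows from 2.52 to 4.18% in scramble to 36.4 to 43.1% in KD LPS while the MCAM part shrinks to 1.52 to 2.64%.

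Without LPS, KD adipocytes had more ICAM1, VCAM1 and NCAM1 mRNA than scramble and less ICAM2, MCAM and ALCAM. Of the 8 members with at least 10 counts in the 6 libraries, 3 were higher and 3 lower at an adjusted p under 0.05, against 12.1% higher and 15.1% lower among 16217 genes tested. At least 2-fold changes were seen in 5, against 7.77% of all genes. NCAM1, among the 3 higher and among these 5, met the count filter through the KD libraries alone (6 counts in scramble, 100 in KD). It is no support for either count. The median log2 fold change was -0.26 over the members and 0.02 over all genes. With LPS in both arms, 2 of 8 were higher and 3 lower, against 12.7 and 14.2% of 15981 genes, and 4 changed at least 2-fold, against 8.48%. Both contrasts used edgeR's quasi-likelihood test with Benjamini-Hochberg adjustment over all genes, as did every adjusted p below.

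With LPS fewer members passed the test. In scramble 2 of 9 rose and 0 fell, against 5.9% higher and 8.38% lower among 15920 genes. In KD 3 of 8 rose and 0 fell, against 5.32% and 6.03% of 16169. In each arm 2 members changed at least 2-fold, against 2.68% of genes in scramble and 2.25% in KD. At an unadjusted p under 0.05, 1 member was lower in each arm, MCAM, and DESeq2 called 0 lower in scramble and 1, MCAM again, in KD. With same-numbered libraries taken as a replicate block, MCAM was also called lower in KD (adjusted p = 0.00024). The comparisons share libraries: KD is in 2 of the 4, and so is each other group.

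**Figure D2:**
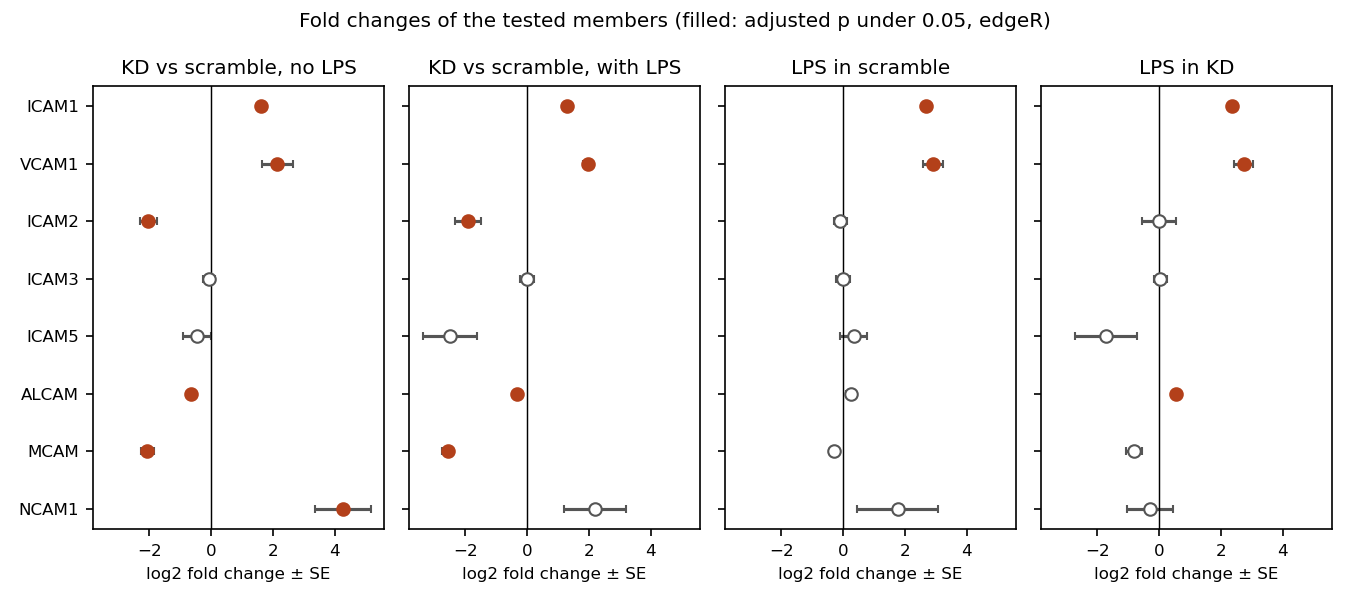
Log2 fold change ± SE of the 8 members tested in all 4 comparisons (edgeR), filled where the adjusted p was under 0.05. ICAM1 and VCAM1 lie right of 0 in all 4 panels, and ICAM2 and MCAM lie left of 0 with KD.

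ICAM1, the main endothelial and stromal ligand of LFA-1, was at 7.94, 10.5 and 7.95 CPM in the 3 scramble libraries and 28.1, 26.4 and 25.9 CPM in KD. LPS brought it to 46.8, 67.3 and 55.9 CPM in scramble and 131, 156 and 125 CPM in KD. No 2 groups overlapped, and the order was scramble, KD, scramble LPS, KD LPS. KD raised ICAM1 3.06-fold without LPS (log2 1.61 ± 0.13 SE, adjusted p = 3.3e-06) and 2.42-fold with LPS (1.28 ± 0.13, adjusted p = 4.5e-06). LPS raised it 6.50-fold in scramble (2.70 ± 0.15, adjusted p = 6.1e-07), the 27th smallest p of all genes, and 5.12-fold in KD (2.36 ± 0.10, adjusted p = 7.1e-10), the 19th smallest.

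VCAM1, the ligand of VLA-4, was scarce in scramble at 0.361, 0.685 and 0.731 CPM (19 to 36 counts). It was at 4.47, 1.75 and 1.68 CPM in KD, with KD library 1 above the other two and within the scramble LPS range. With LPS it was at 3.89, 4.49 and 4.92 CPM in scramble and 14.5, 18.5 and 19.0 CPM in KD, higher than every other library. KD raised VCAM1 4.43-fold without LPS (log2 2.15 ± 0.49 SE, adjusted p = 0.0062). Without KD library 1 the log2 change was 1.53 (adjusted p = 0.043). With LPS the KD difference was 3.90-fold (1.97 ± 0.17, adjusted p = 1.4e-06). LPS raised VCAM1 7.55-fold in scramble (2.92 ± 0.33, adjusted p = 1e-04) and 6.69-fold in KD (2.74 ± 0.31, adjusted p = 2.9e-05), the latter 3.33 on the log2 scale without KD library 1.

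ICAM1 and VCAM1 moved together over the 12 libraries, with a Pearson r of 0.97 between their log2 CPM. The 12 points fall into 4 groups, which ICAM1 separates fully, so this r largely restates the group differences. The gene most like each, among 11811 with a mean of at least 50 counts, was SUSD6, at r = 0.995 for ICAM1 and 0.981 for VCAM1. Next for ICAM1 were ZC3H12A, an endoribonuclease of inflammatory mRNAs, at 0.993, and TNFAIP8 at 0.989, and for VCAM1 NUB1 at 0.979 and PLK2 at 0.975.

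**Figure D3:**
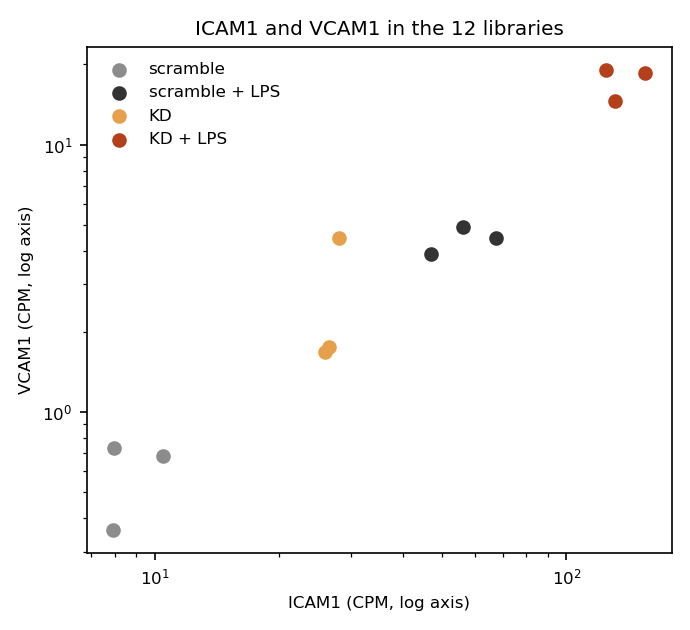
ICAM1 against VCAM1 in CPM, both axes logarithmic, 1 point per library and 1 colour per group. The 3 KD LPS libraries sit at the top right, at 125 to 156 CPM of ICAM1 and 14.5 to 19.0 CPM of VCAM1, and the 3 scramble libraries at the bottom left.

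ICAM2, a second LFA-1 ligand, fell with KD and did not pass the test with LPS. It was at 6.47, 4.85 and 4.02 CPM in scramble and 5.24, 4.62 and 4.48 CPM in scramble LPS. KD libraries were at 1.47, 1.08 and 1.21 CPM and KD LPS libraries at 1.61, 1.68 and 0.422 CPM, all below every scramble library. KD lowered ICAM2 4.09-fold without LPS (log2 -2.03 ± 0.28 SE, adjusted p = 0.00018) and 3.80-fold with LPS (-1.93 ± 0.42, adjusted p = 0.0035). Its LPS change was -0.08 on the log2 scale in scramble (95% interval -0.55 to 0.38) and -0.0067 in KD (-1.19 to 1.17).

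ICAM3, a ligand used by resting leukocytes, lay between 4.75 and 7.94 CPM in all 12 libraries. Groups overlapped in each comparison, and its log2 changes were between -0.07 and 0.04. The 95% intervals of the KD difference were -0.51 to 0.38 without LPS and -0.50 to 0.48 with it.

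ICAM5, known from forebrain neurons, was low. It was at 1.65, 1.14 and 1.12 CPM in scramble, 2.79, 1.16 and 0.984 in scramble LPS, and 1.35, 0.631 and 0.864 in KD. In KD LPS it was at 0, 0.409 and 0.457 CPM (0 to 19 counts), below every other library, and the library with 0 counts allows a level of up to 0.0849 CPM. The KD difference with LPS was -2.50 ± 0.89 on the log2 scale and missed the threshold (adjusted p = 0.052), although DESeq2 gave an adjusted p of 0.011.

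ALCAM, the most abundant member, was at 353, 265 and 222 CPM in scramble and 158, 200 and 178 CPM in KD, without overlap. With LPS it was at 360, 291 and 340 CPM in scramble and 245, 257 and 286 CPM in KD. KD lowered ALCAM 1.56-fold without LPS (log2 -0.65 ± 0.15 SE, adjusted p = 0.0059). With LPS the difference was 1.26-fold (-0.33 ± 0.09, adjusted p = 0.016). That call was lost without scramble LPS library 1 or 3, or KD LPS library 1 or 2, with adjusted p from 0.053 to 0.075, and with library size as the only scaling (0.054). LPS raised ALCAM 1.47-fold in KD (0.56 ± 0.09, adjusted p = 0.00085). In scramble its LPS change was 0.25 ± 0.14 (adjusted p = 0.3), and 0.46 (adjusted p = 0.026) without scramble library 1. With a replicate block that change was 0.27 (adjusted p = 0.039).

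MCAM, the perivascular and endothelial molecule, showed the most significant KD difference of the members in the LPS arms. It was at 57.7, 55.4 and 76.5 CPM in scramble and 50.2, 54.5 and 49.0 CPM in scramble LPS. KD libraries were at 20.9, 14.8 and 9.73 CPM and KD LPS libraries at 9.48, 10.2 and 5.84 CPM. Library 3 was lowest in both KD groups, as it was for the adipocyte markers. KD lowered MCAM 4.18-fold without LPS (log2 -2.06 ± 0.22 SE, adjusted p = 3e-05) and 5.97-fold with LPS (-2.58 ± 0.17, adjusted p = 8.8e-08). Without KD library 3 the log2 change without LPS was -1.83 (adjusted p = 4.4e-05), and without KD LPS library 3 that with LPS was -2.38 (adjusted p = 3.4e-08). With LPS its change was -0.29 ± 0.12 in scramble (adjusted p = 0.13) and -0.82 ± 0.26 in KD (adjusted p = 0.052, or 0.0075 without KD library 3). With a replicate block the LPS change in KD was -0.80 (adjusted p = 0.00024).

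Most mural markers were lower in KD, as MCAM was, but not all. The 7 mural markers summed to 241 to 253 CPM in scramble, 197 to 205 in scramble LPS, 100 to 118 in KD and 98.2 to 108 in KD LPS, with MYH11 under 1 CPM in every library. Without LPS 5 of 7 were lower in KD and 0 higher by edgeR, at an unadjusted p and by DESeq2 alike, among them NOTCH3 (log2 -2.98 ± 0.16, adjusted p = 1.7e-07) and CSPG4 (-2.23 ± 0.15, adjusted p = 8.3e-07). Over all genes 15.1% were lower. RGS5 and MYH11 were not among the lower: their means were 2.03 and 0.373 CPM in scramble and 2.8 and 0.409 CPM in KD. With LPS the RGS5 means were 3.15 CPM in scramble and 4.11 in KD. The part of mural cells or of mural genes in the MCAM difference was not tested. The genes most like MCAM over the libraries were ALDH1A3 (r = 0.99), PRG4 (0.988) and CDC42EP4 (0.987).

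NCAM1 was close to absent in scramble, with 3, 2 and 1 counts. It had 35, 33 and 32 counts in KD, 5, 3 and 8 in scramble LPS, and 6, 41 and 26 in KD LPS. KD and scramble did not overlap. NCAM1 met the filter of 10 counts in this contrast through the KD libraries alone. It is therefore no support for the count of members higher in KD or for that of 2-fold changes. The summed counts of 100 and 6 gave a ratio of 19.6 after scaling (95% counting interval 8.69 to 54.7, adjusted p = 0.0039 by edgeR). With LPS the difference did not pass (log2 2.21 ± 1.00, adjusted p = 0.13), and 1 KD LPS library lay within the scramble LPS range. With LPS in scramble the counts of 6 and 16 gave a ratio of 3.61 (95% counting interval 1.34 to 11.3), which did not pass (adjusted p = 0.44). NCAM1 stayed at or below 1.01 CPM in every library.

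L1CAM had 8 counts in scramble library 2 and 0 or 1 in all other libraries. It was tested only in the LPS response of scramble and in the interaction, and passed in neither. The 3 KD libraries at 0 counts allow levels of up to 0.0557 to 0.0864 CPM.

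**Figure D4:**
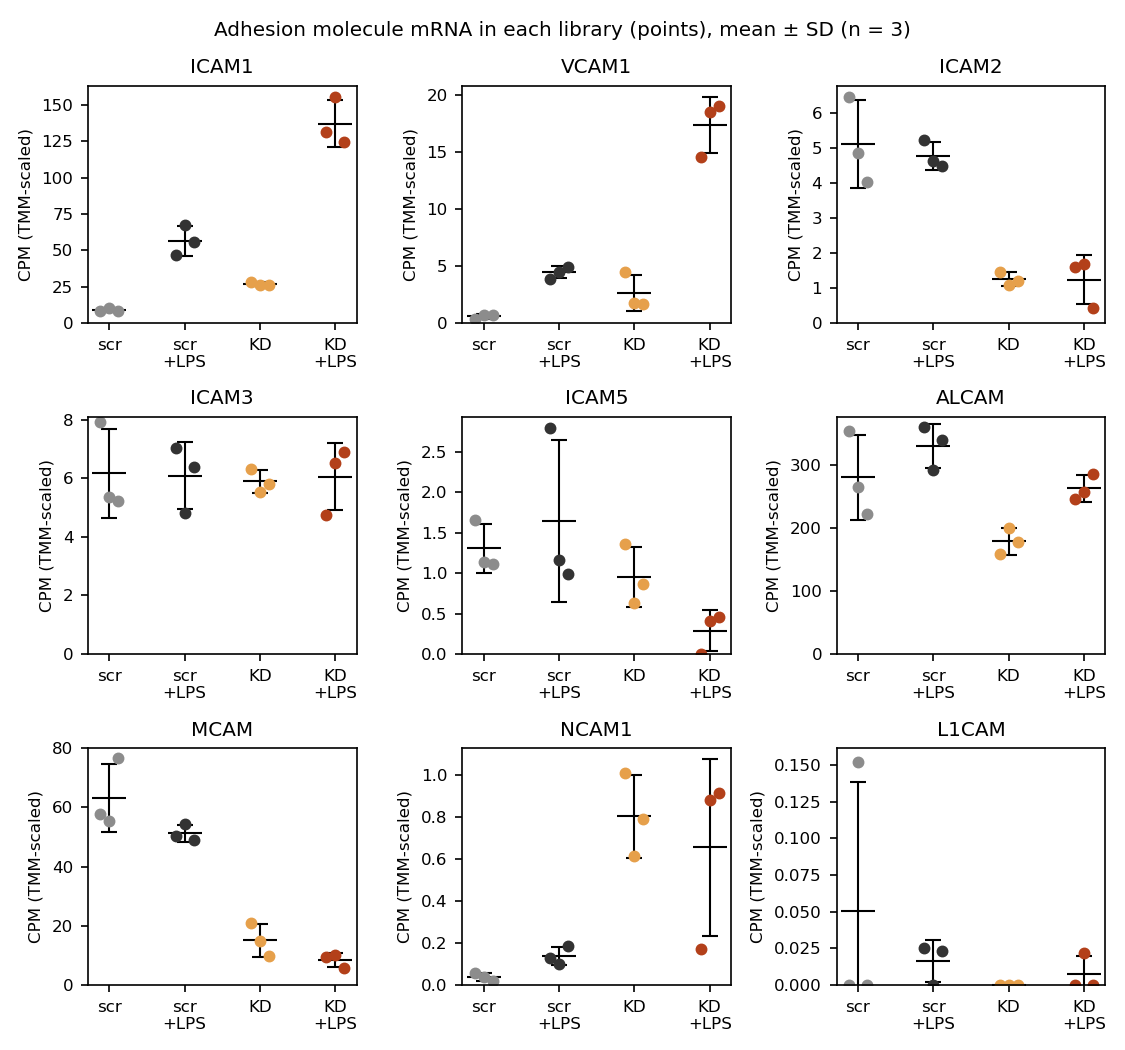
CPM of each member in every library (points) with the group mean ± SD (n = 3), linear axes from 0 (scr, scramble). ICAM1 and VCAM1 are highest in KD LPS, ICAM2 and MCAM are low in both KD groups, ICAM3 is level, and L1CAM is at 0.152 CPM or less.

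The LPS response of the members did not differ detectably between KD and scramble. The interaction, that is the KD difference with LPS minus that without, passed for 0 of 9 members, with 0 at an unadjusted p under 0.05 and 0 by DESeq2, against 0.943% higher and 0.332% lower among 17173 genes. For ICAM1 it was -0.33 on the log2 scale (95% interval -0.72 to 0.06, adjusted p = 0.54) and for VCAM1 -0.17 (-1.12 to 0.79, adjusted p = 0.98). IL6 did differ, with an interaction of 1.17 ± 0.13 (adjusted p = 0.00014), while CXCL8 did not pass (0.17 ± 0.13, adjusted p = 0.69). The widest intervals belonged to ICAM5 (-4.18 to 0.11, adjusted p = 0.48) and NCAM1 (-4.56 to 0.47, adjusted p = 0.57) among the members above 1 count on average.

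Regulators of routes known to act on the ICAM1 and VCAM1 promoters moved in both contrasts, though not all upward. Of 19 transcription factors and inhibitors of the NF-κB and interferon routes, LPS raised 9 and lowered 1 in scramble and raised 11 and lowered 1 in KD. Over all genes 5.9% rose and 8.38% fell in scramble, and 5.32 and 6.03% in KD. The largest changes in scramble were NFKB2 (log2 2.09 ± 0.12, adjusted p = 6.7e-07), REL (1.99 ± 0.12, adjusted p = 8.1e-07) and TNFAIP3, the deubiquitinase that restrains NF-κB (1.87 ± 0.10, adjusted p = 3.3e-07). KD without LPS raised 8 of 19 and lowered 0, against 12.1% higher and 15.1% lower over all genes. DESeq2 called 9 and 1, and the unadjusted counts were 10 and 2. Among those raised were GATA6 (1.75 ± 0.20, adjusted p = 4.1e-05) and FOS (1.56 ± 0.19, adjusted p = 7.1e-05). With LPS in both arms, KD raised 11 and lowered 2, against 12.7% higher and 14.2% lower over all genes. Those raised included IRF1 (1.03 ± 0.10, adjusted p = 4e-06). GATA2 had means of 25.8 CPM in scramble, 15.2 in scramble LPS, 19.9 in KD and 7.93 in KD LPS. RELA means were 77.1, 71.2, 64.1 and 82 CPM in the same order. The list's median log2 change was 0.43 and 0.52 with LPS in scramble and KD, and 0.19 and 0.33 with KD without and with LPS, against 0.0099 to 0.0252 over all genes.

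Receptors and ligands above these factors changed too. Of 12, 11 were tested, and 5 of these were higher and 1 lower in KD in both contrasts. Over all genes 12.1% were higher and 15.1% lower in KD without LPS, and 12.7 and 14.2% with it. IL1B, an inflammatory cytokine, rose with KD by 3.31 ± 0.32 on the log2 scale without LPS (adjusted p = 1.4e-05) and 4.50 ± 0.21 with it (adjusted p = 4.1e-09), and TNFRSF1B, a TNF receptor, by 1.19 ± 0.12 and 1.30 ± 0.16. TNFRSF1A fell in both, by 0.98 and 1.21. With LPS 3 rose in each arm, and 3 fell in scramble and 2 in KD. Over all genes 5.9% rose and 8.38% fell in scramble, and 5.32 and 6.03% in KD. TNF and IFNB1 were under 1 CPM in every library. TLR4, the receptor of LPS, had an interaction of 1.09 ± 0.24 (adjusted p = 0.03). In scramble LPS lowered it from a mean of 14.3 to 7.89 CPM (-0.84 ± 0.16, adjusted p = 0.0045). The TLR4 means were 13.7 CPM in KD and 16.1 in KD LPS.

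The integrins and lectins that bind the members on leukocytes were mostly near 0 in these cells. Of 14, 9 were under 1 CPM in every library, among them ITGAL, ITGAM and ITGB2, the chains of LFA-1 and Mac-1. ITGA4 and ITGB1, the chains of VLA-4, were measured at 42.7 and 1762 CPM on average in scramble and passed in no comparison. KD lowered ITGA5, the fibronectin receptor chain, by 1.23 without and 1.25 with LPS on the log2 scale (adjusted p = 3.6e-07 and 3.3e-08), and ITGAV by 0.82 and 0.61. LPS lowered ITGA5 in both arms, by 1.53 in scramble and 1.56 in KD. ITGB2, the 1 receptor gene called higher in KD, had 0, 1 and 0 counts in scramble and 29, 5 and 30 in KD. It met the filter without LPS through the KD libraries alone, and its KD libraries were uneven. With LPS it met the filter through the KD LPS libraries alone (9 counts in scramble LPS and 76 in KD LPS).

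Of 17 other molecules that leukocytes use on vessels, 15 were tested without LPS, where 1 was higher and 5 lower in KD, and 16 with LPS, where 1 was higher and 6 lower. Over all genes 12.1% were higher and 15.1% lower without LPS, and 12.7 and 14.2% with it. PODXL, a sialomucin of podocytes and endothelium, fell by 3.65 ± 0.23 and 3.37 ± 0.31 on the log2 scale (adjusted p = 4.1e-07 and 2.4e-06), and AOC3, the vascular adhesion protein also found on adipocytes, by 1.75 ± 0.32 and 2.59 ± 0.24. JAM2, a junctional adhesion molecule, rose by 2.88 ± 0.51 and 3.11 ± 0.37. LPS raised CD44, the hyaluronan receptor, in scramble (0.65 ± 0.08, adjusted p = 0.00019) and KD (0.86 ± 0.06, adjusted p = 2.2e-07). In all LPS raised 1 and lowered 2 of the 15 tested in scramble, against 5.9 and 8.38% of all genes. In KD it raised 2 and lowered 1 of 15, against 5.32 and 6.03%. E-selectin (SELE) and P-selectin (SELP) were under 1 CPM in every library.

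Among 31 other immunoglobulin-type adhesion molecules KD changed genes in both directions. Without LPS 6 were higher and 7 lower of 28 tested, against 12.1 and 15.1% of all genes. With LPS 8 were higher and 7 lower of 24 tested, against 12.7 and 14.2%. Without LPS CNTN1, CHL1 and OPCML met the count filter through KD alone (0 counts in scramble, and 24, 13 and 11 in KD). NECTIN4 and CEACAM1 met it through scramble alone (30 and 33 counts, against 7 and 6 in KD). With LPS CNTN1 (0 and 47 counts) and ICAM4 (7 and 16) met it through KD LPS alone. These genes are no support for the counts of higher or lower genes. NCAM2, a paralog of NCAM1, fell by 3.74 ± 0.35 and 3.94 ± 0.20 on the log2 scale, and THY1 by 2.37 ± 0.11 and 2.53 ± 0.09. CADM3 rose by 2.92 ± 0.19 and 3.28 ± 0.16. LPS raised 1 and lowered 3 of 25 tested in scramble, against 5.9 and 8.38% of all genes. In KD it raised 2 and lowered 1 of 27, against 5.32 and 6.03%. PVR was lower in both (-0.94 ± 0.11 and -0.70 ± 0.12). In the interaction 1 of 28 passed, NPTN (0.56 ± 0.11, adjusted p = 0.017), against 0.943% higher and 0.332% lower over all genes.

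Of 11 shedding proteases and cytoskeletal linkers, all tested, KD raised 1 and lowered 6 without LPS, and raised 2 and lowered 5 with it. Over all genes 12.1% were higher and 15.1% lower without LPS, and 12.7 and 14.2% with it. ANK2, an ankyrin that anchors L1-type molecules, fell by 0.84 ± 0.18 and 0.99 ± 0.16, and BACE1 by 0.66 ± 0.07 and 0.74 ± 0.08. With LPS 2 rose and 2 fell in scramble, against 5.9 and 8.38% of all genes, and 1 rose and 1 fell in KD, against 5.32 and 6.03%. In KD the riser was ADAM17, a sheddase of ICAM1 and VCAM1 (0.43 ± 0.08, adjusted p = 0.003). ADAM17 also rose with LPS in scramble (0.32 ± 0.07, adjusted p = 0.015), and its means were 104 CPM in scramble, 128 in scramble LPS, 111 in KD and 149 in KD LPS.

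Markers of endothelial cells, a known site of some members such as ICAM2 and MCAM, were divided. CDH5, TIE1, CLDN5 and ERG were under 1 CPM in every library, CLDN5 at 0 throughout, while VWF, TEK and PECAM1 were at means of 9.66, 8.71 and 7.44 CPM in scramble and 2.21, 2.52 and 6.68 CPM in KD. The 9 endothelial markers summed to 24.5 to 28.1 CPM in scramble, 16.5 to 18.1 in scramble LPS, 12.9 to 13.4 in KD and 9.27 to 14.8 in KD LPS, and 2 were lower without LPS in KD, VWF (-2.12 ± 0.21) and TEK (-1.79 ± 0.19), in the direction of ICAM2 and MCAM. With LPS 3 were lower and 1 higher in KD, KDR (4.89 ± 0.60, adjusted p = 3.4e-05). In each of these contrasts 7 of the 9 were tested. Over all genes 15.1% were lower without LPS, and 14.2% were lower and 12.7% higher with it. The part of these genes in the ICAM2 and MCAM differences was not tested. Of 10 leukocyte markers, PTPRC, ITGAM, LYZ, CD3E, CD79A, TYROBP and AIF1 were under 1 CPM throughout and 3 of them at 0. The sum, 53.8 to 59.4 CPM in scramble and 32.6 to 38.7 in KD, included CD68, which fell by 0.78 ± 0.09. Of 8 neural and glial markers SOX10 was at 0 and ELAVL3, ELAVL4 and STMN2 were under 1 CPM, and the sum lay between 4.85 and 7.27 CPM in all libraries. Among the adipocyte markers without LPS FABP4 fell the most (-1.65 ± 0.27, adjusted p = 0.00071). Of 8 stromal markers 4 were higher and 3 lower in KD, against 12.1 and 15.1% of all genes.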

How the data were processed

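Libraries were made from polyA RNA of sorted ASC52telo hTERT adipocytes with a stranded mRNA kit. The authors pseudoaligned reads to a human transcriptome (GRCh38) with kallisto and deposited estimated counts per gene name for the 12 libraries, per the labels and the study's methods. The submitters' processing notes name bcl2fastq 2.19, kallisto 0.44.0 and DESeq2 1.32.0. The annotation release and strand setting are not given in the sources used here. A row without a gene name, 0.235 to 0.306% of counts per library, was left out.

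Estimated counts were rounded. Each pair of groups (3 against 3) was fitted with edgeR 4.0.16 (R 4.3.3; quasi-likelihood F test, TMM, a summed count of 10 or more in the libraries of that fit, no replicate block), and the interaction on all 12. P-values were adjusted with Benjamini-Hochberg over all genes tested, and an adjusted p under 0.05 was called. The SE is the log2 fold change divided by the square root of F, and 95% intervals use the t quantile at the test's degrees of freedom. Counting intervals are exact, and they and the limit of 3 counts for a count of 0 cover counting error only. DESeq2 1.42.0, other scalings, other filters, all 12 libraries in the fit, a replicate block and each library left out were alternatives. The code was tested on simulated data.

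Members and lists were chosen with earlier results of these data known. All 9 members were named. Of every other list, up to 3 called genes per comparison with the largest log2 fold change and a mean of at least 50 counts were named, and a few more where a count of 5 or fewer was described or a gene bears on a member. The latter (such as ITGB2, ITGA4, ITGB1, SELE, TNF, KDR, ADAM17 and CD68) were chosen after their values were seen or, for genes at or near 0, as defining genes of a list. Likeness between genes is the Pearson correlation of log2 CPM with a prior count of 1. Some genes that these rules pick are not reported here.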

Additional observations from a re-analysis of the deposited data

How the results depend on the processing

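Of 42 member results (a member in a comparison), 27 kept their direction and side of the threshold under every alternative run. The number of members called was 6 without LPS under each alternative, 4 to 6 with LPS, 2 to 3 for LPS in scramble, 3 to 4 for LPS in KD and 0 for the interaction. The results that changed sign were small against their errors. ICAM3's KD change was 0.038 without LPS and 0.074 with LPS, and its LPS change in KD -0.012, with library size as the only scaling. ICAM2's LPS change in KD was 0.013 with all 12 libraries in the fit. Leaving out a library at a time, ICAM3 ranged from -0.18 to 0.16 (KD without LPS), -0.15 to 0.14 (KD with LPS), -0.13 to 0.22 (LPS in scramble), -0.063 to 0.19 (LPS in KD) and -0.16 to 0.19 (interaction). ICAM2 ranged from -0.23 to 0.12, -0.28 to 0.39 and -0.17 to 0.50 for the last 3 of these, ICAM5 from -0.28 to 0.62 for LPS in scramble, NCAM1 from -0.60 to 0.16 for LPS in KD and VCAM1 from -0.42 to 0.43 for the interaction. The cause was not tested.

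Calls moved for few members. ALCAM's KD difference with LPS was lost with all 12 libraries in the fit (adjusted p = 0.076). ICAM5's was gained with no filter (adjusted p = 0.012), all 12 libraries (0.019) and DESeq2 (0.011). MCAM's LPS change in KD was gained with DESeq2 (0.017), library size only (0.04), no filter (0.0024) and all 12 libraries (0.022).

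Of 18 same-numbered pairs 4 correlated above 0.1 (range -0.139 to 0.231), against 2 of 36 with different numbers, and within an shRNA arm 3 of 6 did. A library correlated best with its own number in 9 of 36 cases. The main fits did not take the numbers as pairs, and these correlations do not settle whether they are. In both KD groups the summed adipocyte markers fell from library 1 to 3 (1820, 1380 and 624 CPM without LPS, 1170, 805 and 503 with it). In scramble the order did not repeat with LPS. With the replicate block the members called were 6, 5, 3, 4 and 0, ALCAM's LPS change in scramble (0.27, adjusted p = 0.039) and MCAM's in KD (-0.80, adjusted p = 0.00024) passed, and ICAM2's interaction turned to -0.0074. Over all genes the interaction count of 219 was 475 with DESeq2, 431 with no filter and 92 to 243 with a library left out. NCAM1, L1CAM and ICAM5 rest on few counts.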

Other observations

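ICAM1 sits in a cluster of related genes, and its neighbours were looked at after their values had been seen. Within 100 kb of ICAM1 GENCODE v44 lists 18 genes, of which 11 were tested. ICAM1 was the 1 gene called with LPS in scramble and the 1 called with KD under LPS. Over all genes 5.9% were higher and 8.38% lower with LPS in scramble, and 12.7 and 14.2% with KD under LPS. The shares were 12.1 and 15.1% with KD without LPS, and 5.32 and 6.03% with LPS in KD. Without LPS KD also raised FDX2, a mitochondrial ferredoxin (log2 0.70 ± 0.19 SE, adjusted p = 0.016), and with LPS in KD DNMT1, the maintenance DNA methyltransferase, was lower (-0.30, adjusted p = 0.043). The tested neighbours included ICAM4, ICAM5, ICAM3 and TYK2, a kinase of interferon signalling, none of which passed in these 4 comparisons (edgeR). ICAM4 had 0 to 13 counts per library.

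Of the member pairs with a mean of at least 50 counts, ICAM2 and MCAM also moved closely over the 12 libraries (Pearson r = 0.925 on log2 CPM), with the same reserve that the points fall into 4 groups. ICAM3 had no close match: its most similar gene, PSME3IP1, reached r = 0.813, where the best match of every other such member reached at least 0.956.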
